A study of Mus musculus with 10 samples.

Results

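MHC class II antigen presentation was followed through 10 genes chosen by symbol, all of which were present among the 24537 gene symbols of the count table and all of which passed the filter on low counts. The members are H2-Aa, H2-Ab1 and H2-Eb1, which encode chains of the classical class II molecules, the invariant chain Cd74, the transactivator Ciita, the peptide exchange factor genes H2-DMa, H2-DMb1 and H2-DMb2, and H2-Oa and H2-Ob, whose product inhibits that exchange factor. RNA was sequenced from 10 whole livers of male mice. Every mouse had received an adeno-associated virus of serotype 8 (AAV8) carrying the Cas9 of Staphylococcus aureus (saCas9), driven by the hepatocyte promoter TBG, and a guide RNA from the U6 promoter. The 3 young Rosa26 livers came from mice aged 9 months that were given a control virus at 7 months, directed at the Rosa26 locus, a commonly used neutral site. The 3 old Rosa26 livers had the same control virus, given at 23 months, and were taken at 25 months. The 4 old Cd44KO livers were also taken at 25 months after virus at 23 months, but the guide was directed at Cd44, which encodes a cell surface receptor for hyaluronan. Old Cd44KO replicates 1 and 2 carried the guide labelled g4 and replicates 3 and 4 the guide labelled g2. The TBG promoter restricts the editing to hepatocytes, so the immune and endothelial cells in each liver were not the intended target. The comparisons address the effect of age in control livers and the effect of hepatocyte Cd44 editing in old livers.

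Class II molecules display peptides from endocytosed proteins to CD4 T cells. Their chains assemble on the invariant chain in the endoplasmic reticulum, travel to late endosomes, and exchange a remnant of the invariant chain for a peptide with the help of H2-DM, which H2-O holds in check. The genes are switched on by CIITA, which docks on the factors RFX, CREB and NFY at a conserved promoter module, and in the liver they are known chiefly from dendritic cells, B cells, macrophages including Kupffer cells, and to a lesser degree from sinusoidal endothelium.

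The module is shown first because it is the known control sequence of the pathway. Its X box, bound by RFX, was searched as ACNGATG and its Y box, bound by NFY, as ATTGG, on both strands, within the 250 bases before each transcription start in RefSeq's promoter table (build GRCm38.p6). The 2 motifs do not overlap as searched. Windows of 7 members were used, 8 windows in all. H2-Ab1 and Ciita had no window, and Cd74 was left out of the search, so the counts below do not cover these genes. The X box letters occurred in 5 of these members and the Y box letters in all 7, against 8.31% and 33.8% of all 32851 windows. An X box followed by a Y box 15 to 35 bases further on was counted in the members only on the strand of the gene. It occurred in 3 members, H2-Eb1, H2-DMb1 and H2-DMb2. With either strand counted, it occurred in 0.164% of all windows, which belong to 52 genes. Members were counted by gene and the shares by window, so the 2 measures are not alike. The gap between the motifs was 22 bases in H2-Eb1 and 23 bases in both H2-DMb1 and H2-DMb2. These stretches are given 5′ to 3′ on the strand of the gene, with the 2 motifs in capitals.
H2-Eb1, chr17:34305749-34305842, plus strand: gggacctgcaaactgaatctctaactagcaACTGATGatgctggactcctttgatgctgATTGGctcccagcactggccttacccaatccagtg
H2-DMb1, chr17:34153070-34153164, plus strand: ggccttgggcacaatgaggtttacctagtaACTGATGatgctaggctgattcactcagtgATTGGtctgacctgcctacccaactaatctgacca
H2-DMb2, chr17:34145099-34145193, plus strand: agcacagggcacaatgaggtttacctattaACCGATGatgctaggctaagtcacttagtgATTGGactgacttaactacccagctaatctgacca

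In H2-Aa, H2-Oa, H2-Ob and H2-DMa no X box in these letters lay upstream of the Y box at that spacing. Their matches to the Y box letters, in capitals, are shown with the flanking sequence. In H2-Aa, H2-Oa and H2-Ob the region where the X box lies in the other genes can thus be compared. H2-DMa had 2 windows, of which 1 held neither motif. The other held the Y box letters at position -198 from the start, against -43 to -90 in the other 6 members. Its stretch begins at the edge of that window, and whether this match is a Y box was not tested.
H2-Aa, chr17:34287837-34287943, minus strand: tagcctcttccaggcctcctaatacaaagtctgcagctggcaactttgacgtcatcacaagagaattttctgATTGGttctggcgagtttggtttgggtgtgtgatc
H2-Oa, chr17:34092264-34092370, plus strand: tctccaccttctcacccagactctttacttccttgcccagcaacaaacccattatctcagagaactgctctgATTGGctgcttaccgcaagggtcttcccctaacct
H2-Ob, chr17:34238776-34238882, plus strand: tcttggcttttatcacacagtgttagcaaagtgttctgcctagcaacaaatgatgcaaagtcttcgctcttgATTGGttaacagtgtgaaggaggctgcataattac
H2-DMa, chr17:34125268-34125354, plus strand: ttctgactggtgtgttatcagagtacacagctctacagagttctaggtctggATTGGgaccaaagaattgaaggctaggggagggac

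The 8 H2 genes lie together on chromosome 17 (GRCm38, GENCODE M21), from the start of H2-Oa at 34092340 to the end of H2-Eb1 at 34316674, and are annotated as protein coding. Ciita lies at chr16:10480059-10528418 and Cd74 at chr18:60803848-60812652. Some members share exon sequence with a neighbour on the opposite strand: H2-Oa with BC051537 over 22.8% of its exon bases, H2-DMa with Brd2 over 10.4%, and Ciita with Dexi over 3.45%. Whether the counting used strand is not given in the sources used here, so reads from these stretches cannot be assigned to one gene. H2-DMb1 and H2-DMb2 are close copies, and 15.8% and 14.6% of their stretches of 75 bases are identical, so their counts are uncertain relative to each other. With the counts of both summed, the pair rose with age like each gene alone.

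Total counts ran from 15821198 to 21710228 per liver. Levels are given in CPM, counts scaled to library size after correction by the trimmed mean of M values (TMM), and 3 counts correspond to 0.131 to 0.198 CPM, counting error only. The labels do not say that replicates came from separate animals, so p-values measure the spread between these samples, whose counts differed well beyond counting noise within every group. Cd44 itself did not separate the groups: it stood at 16.6, 11.1 and 10.1 CPM in the young livers, 14.2, 29.99 and 25.9 CPM in the old Rosa26 livers and 18.9, 29.0, 17.6 and 13.1 CPM in the old Cd44KO livers, which gave an adjusted p of 0.896 (edgeR) and a log2 fold change of -0.25 (SE 0.30) for Cd44KO against old Rosa26. Whole-liver RNA therefore did not check the knockout label, and the groups below are those of the labels. Old Rosa26 replicate 3 carries a library name outside the numbering of the other 9, and what that marks is not stated.

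**Figure D1:**
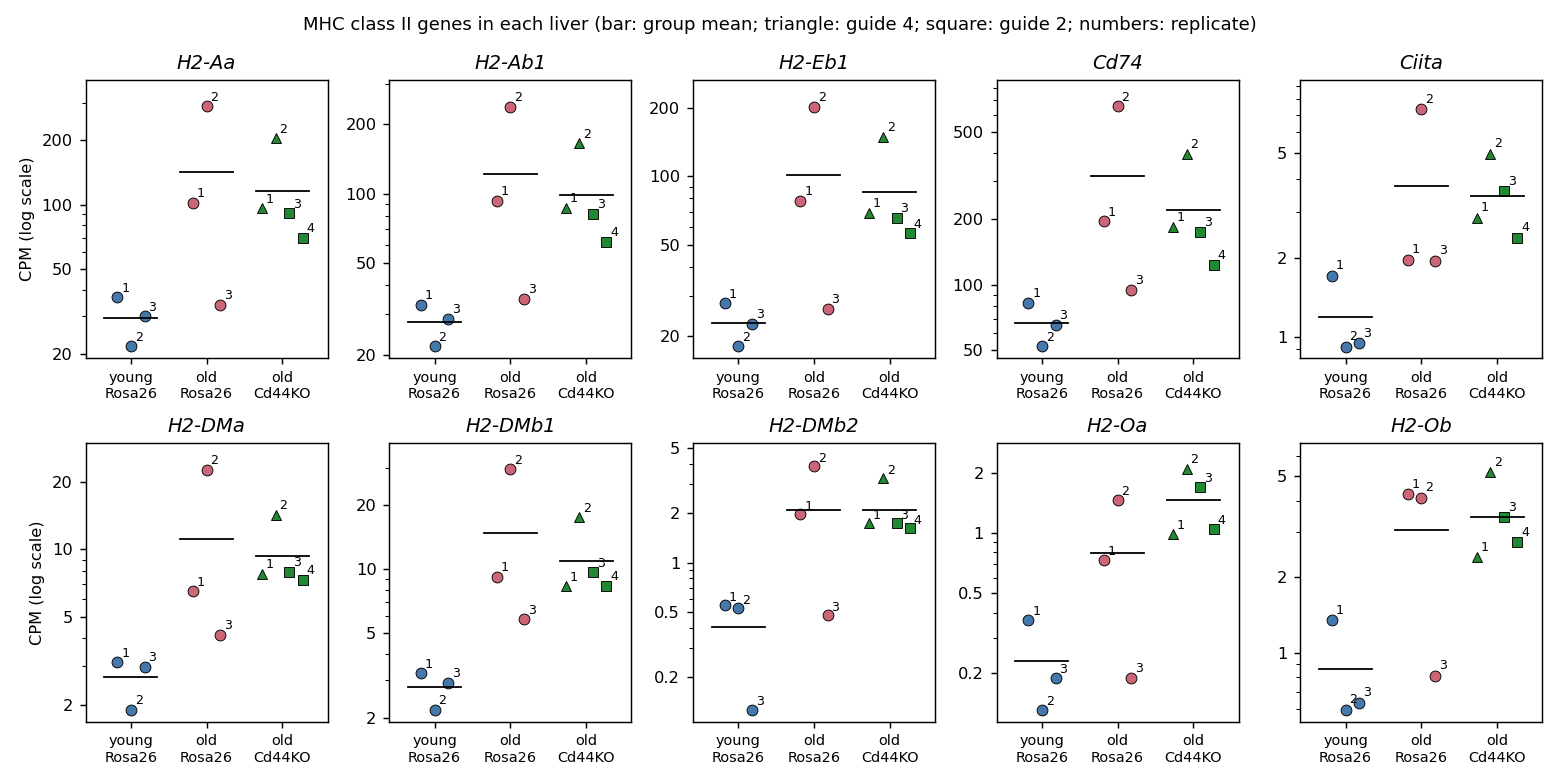
CPM of each of the 10 class II genes (vertical axis, log scale) in the 10 livers, with 1 point per liver, the replicate number beside it and a bar at the group mean. Old Rosa26 replicate 2 is the highest liver for 8 genes, and old Rosa26 replicate 3 is the lowest of the 7 old livers for all 10.

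Summed over the 10 genes, class II RNA made up 191, 120 and 155 CPM in the young Rosa26 livers, 494, 1453 and 203 CPM in the old Rosa26 livers, and 461, 964, 441 and 335 CPM in the old Cd44KO livers. All 7 old livers lay above all 3 young ones, but the old Rosa26 group alone spanned a range wider than that between the ages, from replicate 3, close to the young livers, to replicate 2. In RNA from whole liver, a change in the number of cells that carry class II and a change in the RNA per cell cannot be told apart.

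Class II genes were higher in old than in young control livers: 9 of the 10 rose in old Rosa26 against young Rosa26 (edgeR quasi-likelihood test, adjusted p under 0.05), where 22.8% of the 13909 genes tested changed and 14.1% rose. H2-Oa was the exception, with an adjusted p of 0.0949. The median log2 fold change was 2.15 over the members and 0.04 over all genes tested, and single members ran from 1.64 for Ciita to 2.41 for H2-DMb1. In 5 of the 10 genes no old liver overlapped a young one, against 19.7% of all genes. In the other 5, old Rosa26 replicate 3 was the liver that overlapped.

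Among the classical chains, H2-Aa, the alpha chain of the I-A molecule, measured 37.0, 21.7 and 30.1 CPM in young livers and 102, 290.0 and 34.0 CPM in old Rosa26 livers. Replicate 3 of the old group fell between the young livers, while the other old livers were far above them. Its fold change was 4.80, or 2.26 on the log2 scale (SE 0.64), with an adjusted p of 0.0304. H2-Ab1, the partner beta chain, measured 33.0, 21.7 and 28.6 CPM in young and 93.0, 237 and 34.8 CPM in old livers. It rose by 2.13 on the log2 scale (SE 0.57, adjusted p 0.0256). Here the lowest old liver was just above the highest young one. H2-Eb1, the beta chain of the I-E molecule, measured 27.8, 18.01 and 22.6 CPM in young and 78.1, 201 and 26.3 CPM in old livers, a rise of 2.16 on the log2 scale (SE 0.60, adjusted p 0.0289). Old replicate 3 again lay inside the young range. H2-Ea-ps, the annotated locus of the alpha chain that would pair with H2-Eb1, had 0 counts in every liver, which allows at most the 0.131 to 0.198 CPM given above.

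Cd74, which encodes the invariant chain that blocks the peptide groove until the endosome is reached, was the most abundant member per length of transcript in each group. It measured 82.8, 52.2 and 65.7 CPM in young livers and 196, 656 and 94.6 CPM in old Rosa26 livers, with no overlap between the groups. The log2 fold change was 2.24 (SE 0.63), with an adjusted p of 0.0289. Per kilobase of exon, Cd74 averaged 39.8 ± 9.14 CPM (SD, n = 3) in young and 188 ± 178 CPM (SD, n = 3) in old Rosa26 livers, against 11.7 ± 2.52 and 52.4 ± 46.2 CPM for H2-Eb1, the next most abundant.

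Ciita, the transactivator itself, was rare: 1.71, 0.923 and 0.950 CPM in young livers and 1.97, 7.34 and 1.96 CPM in old Rosa26 livers, which rests on 14 to 161 counts per liver. The lowest old liver lay above the highest young one by less than the spread within the young group. Its log2 fold change was 1.64 (SE 0.54), the smallest of the members, and its adjusted p of 0.0497 was just under the threshold.

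The exchange factor genes moved with the classical chains. H2-DMa measured 3.12, 1.91 and 2.98 CPM in young and 6.49, 22.7 and 4.15 CPM in old Rosa26 livers (log2 fold change 2.05, SE 0.56, adjusted p 0.0272). H2-DMb1 measured 3.24, 2.18 and 2.91 CPM against 9.19, 29.4 and 5.82 CPM (log2 fold change 2.41, SE 0.56, adjusted p 0.0151), the lowest p among the members. In both genes every old liver was above every young one, replicate 3 included. H2-DMb2, with far fewer counts, measured 0.551, 0.528 and 0.127 CPM against 1.97, 3.87 and 0.477 CPM (log2 fold change 2.37, SE 0.72, adjusted p 0.0371). Its old replicate 3 was inside the young range, and 1 young liver held 2 counts.

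The inhibitor genes and H2-DMb2 had the lowest mean CPM of the members in both Rosa26 groups. Per kilobase of exon Ciita was lowest instead, at 0.125 CPM in young and 0.394 CPM in old Rosa26 livers. H2-Oa measured 0.367, 0.132 and 0.190 CPM in young and 0.737, 1.46 and 0.191 CPM in old Rosa26 livers. These values stand on 6, 2 and 3 counts against 15, 32 and 4, and the log2 fold change of 1.76 (SE 0.71) had an adjusted p of 0.0949 and a 95% interval from 0.19 to 3.32. H2-Ob measured 1.35, 0.594 and 0.634 CPM in young and 4.23, 4.10 and 0.811 CPM in old livers, rising by 1.81 on the log2 scale (SE 0.59, adjusted p 0.0468). Unlike the classical chains, H2-Ob was as high in old replicate 1 as in replicate 2.

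The number of class II genes passing the test depended on single livers and on the tool, while the log2 fold change was above 0 for every member that a fit held. DESeq2 also called 9, but limma voom called 1 of the 10. A fit on these 6 livers alone called 1 of 8, since H2-DMb2 and H2-Oa did not pass its filter on low counts. Leaving out old Rosa26 replicate 2 left 1 call and a median log2 fold change of 1.197; leaving out young replicate 1, 2 or 3 left 1, 0 and 1 calls, with medians of 2.31, 2.00 and 2.14, and leaving out old replicate 3 gave 10. Calls over all genes moved too, from 22.8% to 2.8% without young replicate 2 and to 37.7% without old replicate 3.

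**Figure D2:**
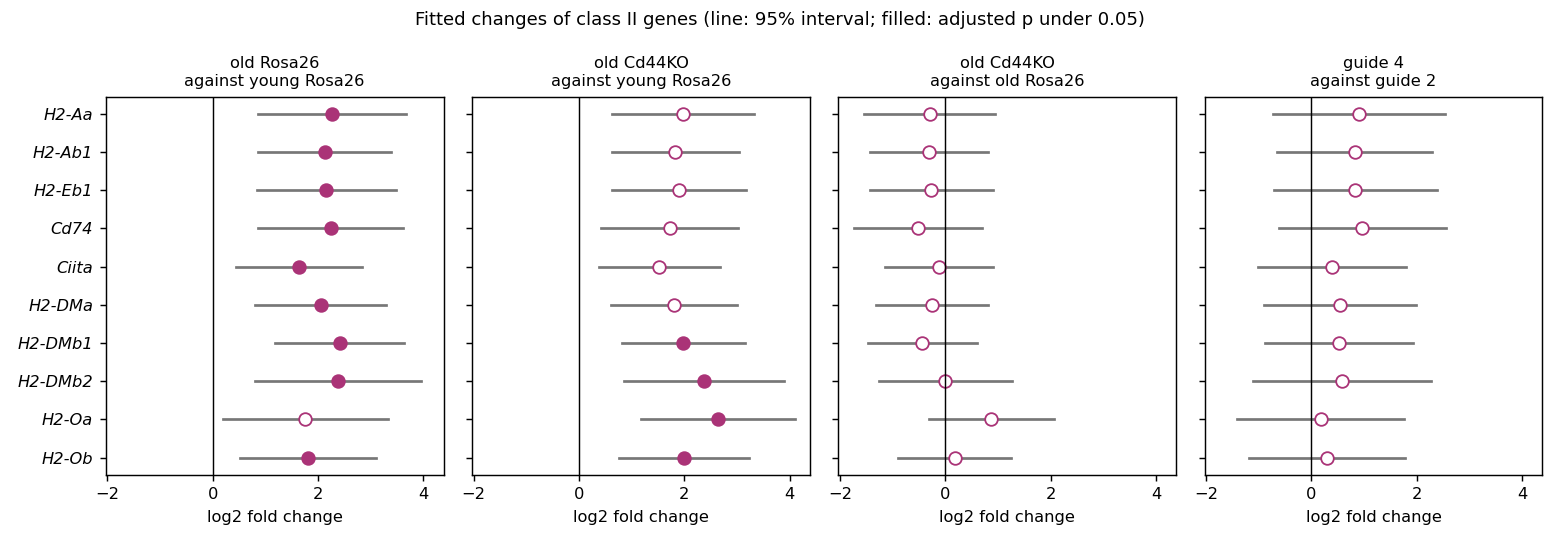
Fitted log2 fold change of each class II gene (horizontal axis) in 4 comparisons, with the 95% interval as a line and filled points where the adjusted p was under 0.05. Filled points number 9 for old against young Rosa26, 4 for old Cd44KO against young Rosa26, and 0 for the other 2 comparisons, where every interval includes 0.

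Hepatocyte Cd44 editing was not accompanied by a detectable change of any class II gene in old liver. None of the 10 passed the test in old Cd44KO against old Rosa26 livers in edgeR, DESeq2 or limma voom, and none had an unadjusted p under 0.05 in edgeR. Over all 13909 genes edgeR called 0% here, with 6.59% at an unadjusted p under 0.05, while DESeq2 called 8 genes and limma voom 0. The members' median log2 fold change was -0.25, beside -0.02 for all genes, and 2 of the 10 were above 0, where 45.6% of all genes were. The smallest adjusted p among the members, 0.794, belonged to H2-Oa.

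H2-Aa measured 96.1, 205, 91.4 and 70.0 CPM in the 4 old Cd44KO livers, and Cd74 measured 185, 398, 175 and 123 CPM. Both sets lay wholly inside the old Rosa26 range, between its replicates 3 and 2. The log2 fold change was -0.30 for H2-Aa, with a 95% interval from -1.54 to 0.95, and -0.52 for Cd74, the lowest of the members, with an interval from -1.74 to 0.70. H2-Ab1 (86.8, 165, 81.3 and 61.6 CPM) and H2-Eb1 (69.3, 148, 65.9 and 56.3 CPM) showed the same order of livers, with log2 fold changes of -0.30 and -0.26. Without old Rosa26 replicate 2, all 10 members stood above 0, with a median of 0.74, and still none passed. Taking that liver out therefore turned the sign of the classical chains, Cd74, Ciita and the exchange factor genes.

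Ciita measured 2.85, 4.97, 3.58 and 2.39 CPM in old Cd44KO livers (log2 fold change -0.12, interval -1.14 to 0.90). H2-DMa measured 7.79, 14.3, 7.91 and 7.29 CPM (-0.25, interval -1.31 to 0.81), and H2-DMb1 measured 8.31, 17.5, 9.66 and 8.34 CPM (-0.43, interval -1.46 to 0.59). In all 3 genes replicate 2 stood above the other Cd44KO livers and below old Rosa26 replicate 2. H2-DMb2 measured 1.74, 3.27, 1.74 and 1.63 CPM, with equal group means of 2.10 and 2.11 CPM for Cd44KO and old Rosa26. Its interval ran from -1.26 to 1.26.

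H2-Oa and H2-Ob were the members with a log2 fold change above 0. H2-Oa measured 0.988, 2.09, 1.70 and 1.05 CPM in the Cd44KO livers, from 17 to 48 counts, against 0.737, 1.46 and 0.191 CPM in old Rosa26 livers. Its log2 fold change was 0.87 (SE 0.54), with an interval from -0.31 to 2.06. The groups overlapped at old Rosa26 replicate 2. H2-Ob measured 2.38, 5.19, 3.44 and 2.74 CPM (log2 fold change 0.18, SE 0.49), and Cd44KO replicate 2 exceeded every old Rosa26 liver.

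Against the young Rosa26 livers, which also serve as controls in the age comparison, all 10 members were higher in every old Cd44KO liver than in any young one, where 21.1% of all genes showed such a separation upward. Only 4 passed the test, H2-DMb1, H2-DMb2, H2-Oa and H2-Ob, where 11.6% of all genes changed and 6.64% rose. The largest log2 fold change was that of H2-Oa at 2.63 (SE 0.66, adjusted p 0.0340), followed by H2-DMb2 at 2.37 (SE 0.69, adjusted p 0.0489), H2-Ob at 2.00 (SE 0.56, adjusted p 0.0453) and H2-DMb1 at 1.98 (SE 0.53, adjusted p 0.0386). The remaining 6 had log2 fold changes from 1.53 for Ciita to 1.97 for H2-Aa and adjusted p-values from 0.0521 to 0.0757, close to the threshold. The median was 1.93, beside 0.03 for all genes. The number of calls was 9 with DESeq2, 0 with limma voom and 10 in a fit on these 7 livers alone; it was 3 without Cd44KO replicate 1 and 0 without any other single liver.

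The guides gave no detectable difference, with 2 livers each. None of the 10 members passed for guide g4 against g2 in edgeR, DESeq2 or limma voom, and none had an unadjusted p under 0.05, where edgeR called 3 of 14153 genes, or 0.0212%, and 4.4% had such an unadjusted p. All 10 log2 fold changes were above 0, where 50.5% of all genes were, from 0.17 for H2-Oa to 0.97 for Cd74. In 5 members the guides did not overlap upward, against 18% of all genes. Among these, H2-DMb2 was all but tied, with the lower g4 and the higher g2 liver both at 1.74 CPM, from 30 and 37 counts. The intervals were wide, from -0.61 to 2.55 for Cd74. The means of g4 contain replicate 2, the highest Cd44KO liver for every member, and without it the median log2 fold change went from 0.56 to 0.04.

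**Figure D3:**
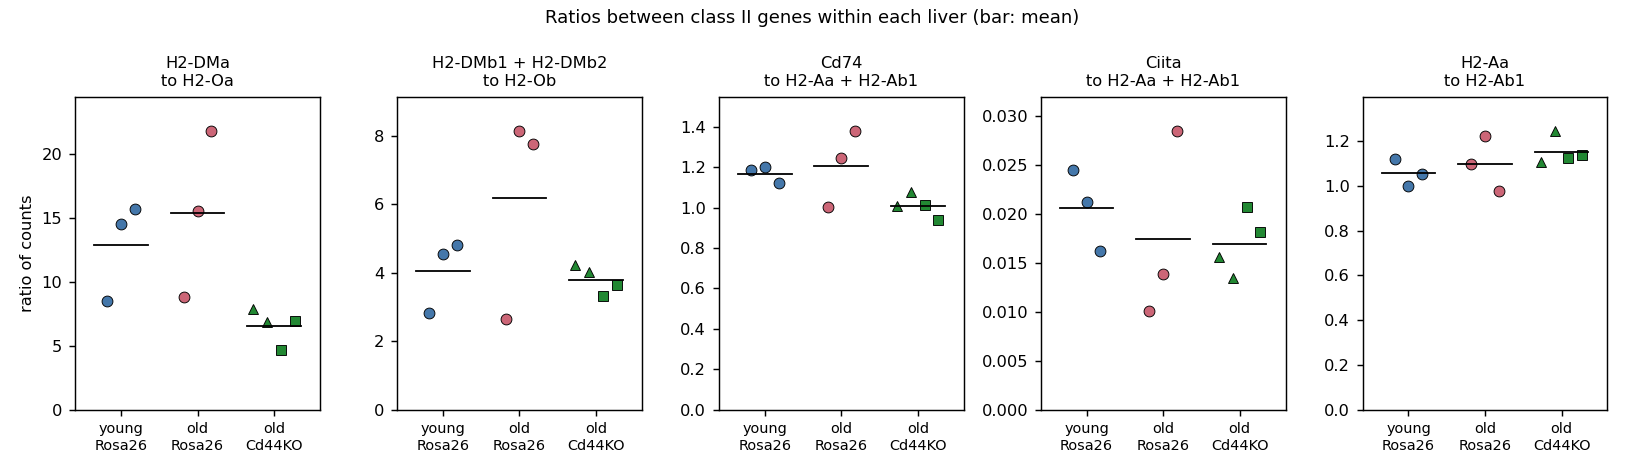
Ratio of counts between class II genes in each of the 10 livers (vertical axis, starting at 0), with 1 point per liver and a bar at the group mean. For H2-DMa to H2-Oa the 4 old Cd44KO livers lie between 4.67 and 7.88, under the lowest liver of either Rosa26 group.

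Ratios within a liver do not depend on the scaling between libraries. H2-DMa to H2-Oa, an exchange factor chain over an inhibitor chain, was 8.50, 14.5 and 15.7 in young, 8.8, 15.5 and 21.8 in old Rosa26 and 7.88, 6.83, 4.67 and 6.94 in old Cd44KO livers. The group means were 12.9 ± 3.85 (SD, n = 3), 15.4 ± 6.48 (SD, n = 3) and 6.58 ± 1.36 (SD, n = 4). The Cd44KO livers were the lowest 4 of the 10. The counts of H2-Oa limit this: its 2 and 3 counts in young replicates 2 and 3 give exact 95% counting intervals of the ratio from 3.67 to 125 and from 5.04 to 78.7, the 4 counts of old Rosa26 replicate 3 one from 8.20 to 81.6, and the lowest Rosa26 ratios, 8.50 and 8.8, have intervals that contain the ratios of Cd44KO replicates 1, 2 and 4. The second exchange factor ratio, H2-DMb1 plus H2-DMb2 over H2-Ob, did not separate the groups, at 4.06 ± 1.08, 6.18 ± 3.07 and 3.80 ± 0.4003 (SD). H2-Oa and H2-DMa also share 22.8% and 10.4% of their exon bases with opposite-strand neighbours, and reads from those stretches cannot be assigned. No test was made on these ratios.

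Cd74 to H2-Aa plus H2-Ab1 was 1.17 ± 0.0432 in young, 1.21 ± 0.190 in old Rosa26 and 1.01 ± 0.0560 in old Cd44KO livers (SD), and all 4 Cd44KO livers lay under the young range of 1.12 to 1.202 but 3 of them were above old Rosa26 replicate 1, at 1.003. H2-Aa to H2-Ab1 stayed between 0.977 and 1.24 in every liver, while summed class II RNA ranged from 120 to 1453 CPM. Ciita over the same pair of chains varied more, at 0.0207 ± 0.00418 in young, 0.0175 ± 0.00969 in old Rosa26 and 0.0170 ± 0.00316 in old Cd44KO livers (SD). It ranged from 0.0101 in old Rosa26 replicate 1 to 0.0285 in old Rosa26 replicate 3, the old control with the least class II RNA.

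The members were correlated with each other across the 7 old livers on the log2 CPM scale. Over 45 pairs Pearson's r ran from 0.57 to 0.999, with a median of 0.90, and the median among H2-Aa, H2-Ab1, H2-Eb1 and Cd74 was 0.99. These are descriptions over livers that share the spread of old Rosa26 replicates 2 and 3. The rest of the pathway was then read from lists of genes. Of 11 factors of class II transcription, 3 rose with age and 1 fell, where 14.1% of all genes rose and 8.66% fell. Leaving out single livers gave 0 calls in this list without young replicate 2, 2 without young replicate 3 or old replicate 2, and 3 or 4 otherwise. Irf4 rose by 2.17 (SE 0.45, adjusted p 0.0113 in edgeR, log2 scale), Spi1 (PU.1) by 1.82 and Irf8 by 1.30, all regulators of B cells or myeloid cells. Rfxank, a subunit of the RFX complex that binds the X box, fell by 0.74 (SE 0.16, adjusted p 0.0122). Rfx5, Rfxap, the 3 NFY subunits and Creb1 did not pass, with log2 fold changes from -0.38 to 0.24. The list's median was -0.05.

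None of the 7 tested genes of the interferon gamma input to Ciita passed in edgeR with age. The list held 8 genes, and the remaining gene did not pass the filter on low counts. The largest changes were those of Socs1 at -0.45 (adjusted p 0.234) and Ifngr1 at 0.44 (adjusted p 0.115), and the list median was -0.24. Calls in this list ran from 0, without old replicate 2 or any 1 young liver, to 2 without old replicate 3, where 37.7% of all genes were called. Irf1, an interferon-induced factor, had a log2 fold change of 0.31. In the endosomal group, 3 of 9 rose, where 14.1% of all genes did: Ctss, the cathepsin that trims the invariant chain, by 1.71 (SE 0.36, adjusted p 0.0116), Ifi30, a lysosomal thiol reductase, by 1.66, and Lgmn, legumain, by 1.24. Its other 6 genes ran from -0.19 to 0.26. The calls in this group numbered 0 without young replicate 2, 1 without young replicate 3 or old replicate 2, and 4 without old replicate 3. March1, the ubiquitin ligase that removes class II from the surface, rose by 1.54 (adjusted p 0.0245), while March8 did not pass at -0.17. Among 4 tested costimulation genes Cd40 rose by 1.85 (adjusted p 0.0376), and Cd86, at 1.18, had an adjusted p of 0.0505. Neither March1 nor Cd40 passed without old Rosa26 replicate 2 or without any 1 of the young livers.

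The class I pathway, which presents peptides from the cytosol and is active in hepatocytes, is the nearest counterpart. Of its 10 genes 1 rose with age, a share near the 14.1% of all genes: the immunoproteasome subunit gene Psmb10, by 0.49 (adjusted p 0.0197). No gene of the list passed without old Rosa26 replicate 2 or without any 1 of the young livers. The list median was 0.09 against 2.15 for class II. H2-K1 and H2-D1 had log2 fold changes of -0.17 and -0.04. In old Cd44KO against old Rosa26 livers, 9 of the 10 were above 0 with a median of 0.26 and none passed in edgeR, and no gene of any list passed in that comparison. The difference between the class I and class II lists was not tested.

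Markers of B cells and dendritic cells, which carry class II, and of T cells, to which it is displayed, were read beside the class II genes. In old against young Rosa26 livers 14.1% of all genes rose. Summed B cell markers were 5.75, 3.23 and 3.67 CPM in young and 25.7, 19.97 and 6.63 CPM in old Rosa26 livers, and 5 of 10 rose, among them Cd79b by 3.03, Ms4a1 by 2.03, Blk by 2.02 and Cd22 by 1.90. Summed T cell markers were 3.55, 4.09 and 3.29 CPM against 8.99, 45.6 and 3.53 CPM, and 4 of 7 rose, among them Cd8a by 2.94 and Cd3e by 2.32. Dendritic cell markers were 11.1, 7.92 and 8.43 CPM against 23.5, 40.3 and 9.44 CPM. Of these markers 2 of 9 rose, not far from the share of all genes, Batf3 by 2.30 and Itgax by 2.14. In these 3 lists old replicate 3 was close to or inside the young range, as in class II. No T or dendritic cell marker was at 0 in any liver, while 2 B cell markers were at 0 in young replicate 2 and 1 in old Rosa26 replicate 3. Without old Rosa26 replicate 2, 2 B cell, 1 dendritic cell and 0 T cell markers passed, and without young replicate 2 none of the 3 lists had a call. T cell calls were also 0 without young replicate 1, without young replicate 3, with limma voom and in the fit on these 6 livers alone. Without old replicate 3 the calls rose to 9, 6 and 6 for B, dendritic and T cell markers. Their part in the class II result was not tested.

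Kupffer cell and monocyte and macrophage markers followed a different order of the old Rosa26 livers. Endothelial markers kept the class II order within each old group, at 249, 282, 243 and 228 CPM in the Cd44KO livers. They placed old Rosa26 replicate 3 above every Cd44KO liver, unlike class II. Summed Kupffer cell markers were 396, 281 and 291 CPM in young and 544, 1760 and 1063 CPM in old Rosa26 livers, so replicate 3, the lowest in class II, was the second highest here. In that comparison, where 14.1% of all genes rose and 8.66% fell, 8 of 10 rose, among them Vsig4 by 2.42, Csf1r by 2.06 and Clec4f, a Kupffer cell lectin, by 1.77. There were 7 calls without old replicate 2 and 0 without young replicate 2. Monocyte and macrophage markers were 79.9, 46.6 and 46.2 against 95.4, 485 and 154 CPM, and 4 of 8 rose, with 1 call without old replicate 2 or young replicate 2, 2 without either other young liver, and 6 without old replicate 1 or 3. Sinusoidal endothelial markers were 197, 165 and 229 against 368, 372 and 336 CPM, and 6 of 8 rose, with 2 calls without young replicate 2 and 4 to 6 without any other single liver. Of the remaining lists, 4 of 4 leukocyte, 4 of 6 stellate cell, 1 of 3 plasma cell and 0 of 5 cholangiocyte markers rose, 1 of 7 hepatocyte markers fell, and H2-Eb2 in the class II locus had a log2 fold change of 1.197 (adjusted p 0.271). Without young replicate 2, 0 leukocyte and 1 stellate cell marker passed, and without young replicate 1 or old replicate 2, 2 stellate cell markers did. In the old Cd44KO livers B cell markers summed to 19.6, 32.7, 22.9 and 20.5 CPM, within or above the old Rosa26 range, while Kupffer cell markers summed to 543, 893, 607 and 501 CPM, so that 3 of the 4 livers lay close to the lowest old Rosa26 liver. No marker passed against old Rosa26. Against young Rosa26, where 6.64% of all genes rose, 7 of 10 B cell, 5 of 7 T cell, 1 of 9 dendritic cell and 2 of 10 Kupffer cell markers did. The dendritic cell share was near that of all genes. Leaving out single livers there gave 1 to 7 B cell, 0 to 2 T cell, 0 or 1 dendritic cell and 0 to 2 Kupffer cell calls. B and dendritic cell calls were fewest without young replicate 2 or 3. T and Kupffer cell calls were 0 in every such fit except that without Cd44KO replicate 1.

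**Figure D4:**
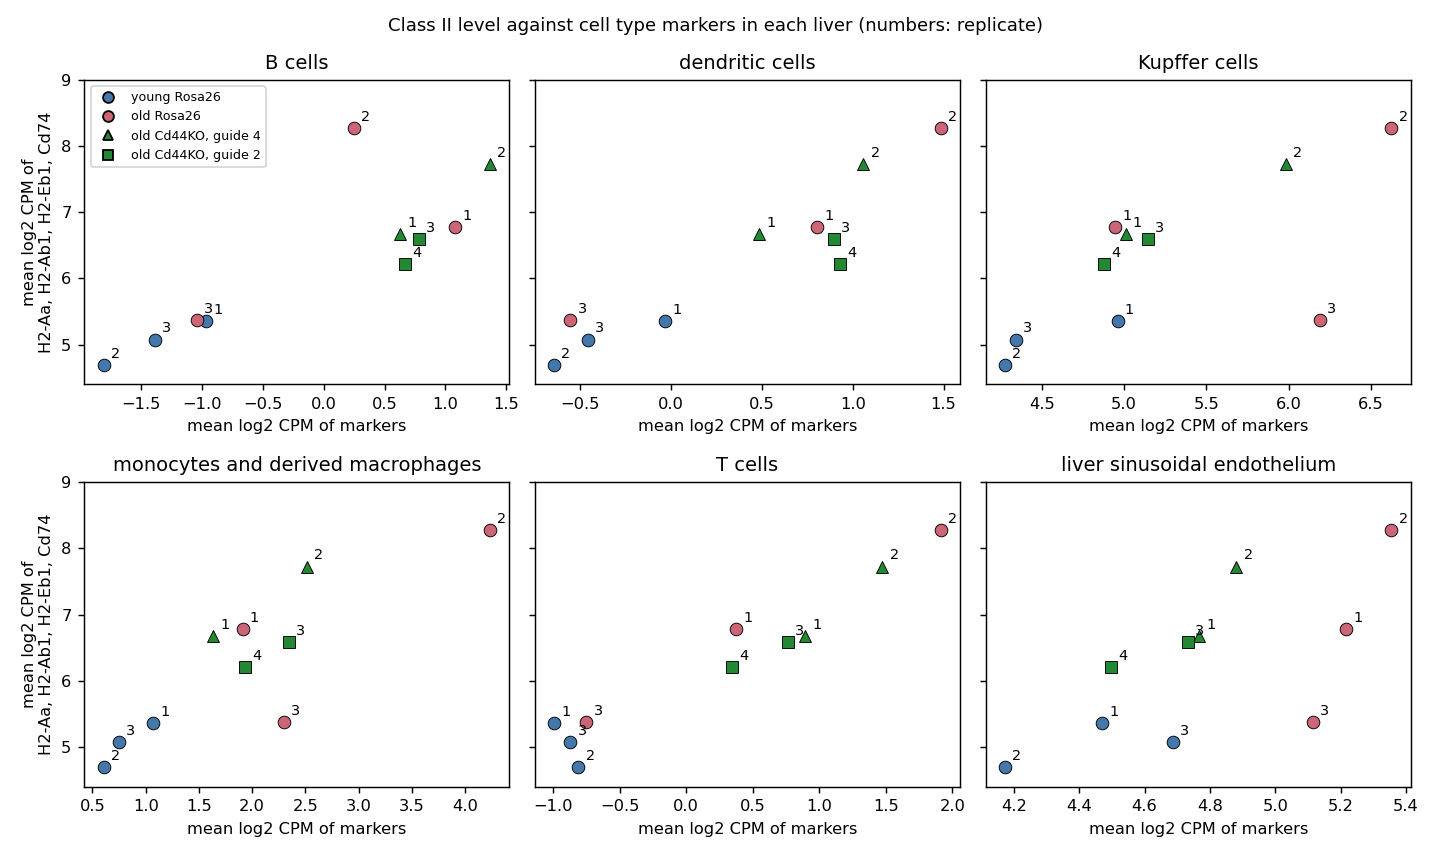
Mean log2 CPM of H2-Aa, H2-Ab1, H2-Eb1 and Cd74 (vertical axis) against the mean log2 CPM of 6 marker lists (horizontal axes), with 1 point per liver and the replicate number beside it. Old Rosa26 replicate 3 lies with the young livers for B, T and dendritic cell markers but far to the right of them for Kupffer cell markers.

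Over the 7 old livers the relation of each member to 6 marker lists was measured, 60 relations in all. By exact permutation of Pearson's r (two-sided), 23 had an unadjusted p and 9 a Benjamini-Hochberg adjusted p under 0.05. The permutation exchanged all 7 livers freely, old Rosa26 with old Cd44KO, so it took no account of group or guide. Of the 9, 8 were with T cell markers. The remaining relation was H2-DMb2 with dendritic cell markers (r 0.95, exact permutation, adjusted p 0.0291). The members were correlated with each other, so the 8 relations with T cell markers are not separate signs. By Spearman's rho no relation had an adjusted p under 0.05 (exact permutation), the smallest being 0.0923. For H2-Aa with T cell markers, r was 0.97 (exact permutation p 0.00179, adjusted 0.0268) and Spearman's rho 0.89 (exact p 0.0123, adjusted 0.0923). This r was 0.87 without the 2 livers farthest from the median of the markers. Without those livers, old Rosa26 replicates 2 and 3, r with T cell markers ran from 0.45 for H2-Ob to 0.93 for H2-DMa. With dendritic cell markers H2-Aa had an r of 0.87 (exact permutation p 0.0117, adjusted 0.0612) and a rho of 0.68 (exact p 0.11, adjusted 0.286). Over the members, r with dendritic cell markers ran from 0.71 for Ciita to 0.95 for H2-DMb2. Without old Rosa26 replicates 2 and 3 it ran from 0.34 for H2-Ab1 to 0.71 for H2-Ob. With Kupffer cell markers H2-Aa had an r of 0.35 (exact permutation p 0.414, adjusted 0.552) and a rho of 0.32 (exact p 0.498, adjusted 0.563). This r became 0.95 without old Rosa26 replicates 2 and 3. Over the members, r with Kupffer cell markers ran from -0.12 for H2-Ob to 0.61 for Ciita. Without the same 2 livers it ran from 0.72 for H2-Ob to 0.99 for H2-DMb1. With monocyte and macrophage markers r ran from 0.26 for H2-Ob to 0.84 for H2-DMb1 (exact permutation, adjusted p 0.0952). With endothelial markers it ran from -0.27 for H2-Oa to 0.47 for Cd74. H2-Ob had the highest r with B cell markers among the members, 0.90 (exact permutation p 0.0216, adjusted 0.0754), with a rho of 0.79 (exact p 0.0480, adjusted 0.222), but r was 0.09 without old Rosa26 replicate 3 and old Cd44KO replicate 2, so the relation rests on those livers. For the other 9 members r with B cell markers ran from 0.26 for Ciita to 0.81 for H2-Oa, and from -0.87 to -0.58 without the same 2 livers. H2-Aa had an r of 0.59 (exact permutation p 0.174, adjusted 0.307) and a rho of 0.36 (exact p 0.444, adjusted 0.563), and its r turned to -0.70.

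The genes most like the classical chains and Cd74 were ranked by Pearson's r with their mean log2 CPM over the 7 old livers, among 12822 other genes that averaged at least 1 CPM in these livers. An r of at least 0.9 was reached by 116 genes, or 0.905%, and none had an adjusted p under 0.05, the smallest p that 7 livers allow being 0.000198. The 10 nearest were Mir5107, whose annotation overlaps that of Cd74, Nkg7, Exoc3l4, Ccl24, Cd3e, Glipr2, Cd4, Cd27, Arl5c and Coro1a, with r from 0.99 down to 0.96. Mir5107 shares 12 bases with Cd74 exons on the same strand, and whether Cd74 reads were counted for it was not tested. Cd4, the coreceptor for class II, measured 1.62, 27.6 and 0.525 CPM in old Rosa26 livers and 2.44, 8.33, 1.98 and 1.40 CPM in old Cd44KO livers. The 100 nearest genes, 0.78% of those ranked, held 4 of 7 T cell, 1 of 6 B cell, 1 of 7 dendritic cell and 1 of 4 leukocyte markers and 1 of 9 endosomal genes. They held no gene of the other lists, among them 10 Kupffer cell, 8 monocyte and macrophage and 8 sinusoidal endothelial markers. The number of genes at an r of at least 0.9 ran from 97 without old Rosa26 replicate 2 to 370 without old Rosa26 replicate 3.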

How the data were processed

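Polyadenylated RNA of 10 whole livers was sequenced as paired reads, per the labels. The authors deposited 1 table of raw counts per gene symbol, and the submitters' processing notes name FastQC 0.11.8, Trim Galore 0.4.4, STAR 2.5.3a, HOMER and the build mm10; the use of strand and the handling of reads with several positions are not given in the sources used here. Library totals, 15821198 to 21710228 counts, set the precision.

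Groups follow the labels, and replicate numbers only name livers. The members, lists and tests were chosen with earlier results of these data known. The deposited counts went unchanged into edgeR 4.0.16 (R 4.3.3; quasi-likelihood, 1 coefficient per group over all 10 livers, TMM, filterByExpr with a minimum count of 10 and a minimum total of 15, which left 13909 genes; 14153 with the guides apart). Benjamini-Hochberg adjusted p-values run over all genes tested, and a gene passed under 0.05. Intervals are 95%. Log2 CPM used a prior count of 2. The method was tested on simulated data. DESeq2 1.42.0, limma 3.58.1 (voom), other scaling, no filter, fewer livers and summed H2-DMb1 and H2-DMb2 were tried as alternatives.

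Named were all 10 members, Cd44, from each list at most 5 genes that passed with the largest log2 fold change (1 such gene is not reported here), or the 2 largest where none passed, and the 10 genes most like the classical chains and Cd74. Irf1, March8, Cd86, the RFX, NFY and CREB factors, H2-K1, H2-D1 and H2-Eb2 were named after their values were seen. There were 18 lists with 134 entries, of which 4 were not in the table. Gene positions come from GENCODE M21 (GRCm38), and promoters are RefSeq's. The promoter table held no window for H2-Ab1 and Ciita, and Cd74 was left out of the motif search.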

Additional observations from a re-analysis of the deposited data

Results flagged for a closer look

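In the old Cd44KO group of 4 livers, 33 values were checked for a liver far from the other 3, by the gap to its nearest neighbour as a share of the group's range; chance alone would mark about 1 in 20, or 1.65 of them, and 5 stood out. Replicate 2 stood above the others in 4 class II genes. H2-Eb1 was 148 CPM there against 56.3 to 69.3 CPM, a gap of 0.859 of the range. H2-DMa was 14.3 CPM against 7.29 to 7.91 CPM, a gap of 0.912. For H2-DMb1 the values were 17.5 CPM against 8.31 to 9.66 CPM, a gap of 0.854, and for H2-DMb2 3.27 CPM against 1.63 to 1.74 CPM, a gap of 0.933. The class II genes move together, so these are not 4 separate signs. Summed plasma cell markers were 72.9 CPM in Cd44KO replicate 1 against 12.3 to 16.9 CPM, a gap of 0.924, in a liver that was not the highest for any class II gene.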

How the results depend on the processing

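No paired analysis was possible because replicate numbers here follow record order and name no shared litter, cage or day. Class II genes called with age numbered 1 with limma voom and 1 in a fit on only the groups compared, and 0 to 10 when single livers were left out. In old Cd44KO against young Rosa26 the calls numbered 9 with DESeq2, 7 with upper-quartile factors, 10 with total counts only, 0 with limma voom, 7 with no filter, 10 in a fit on only the groups compared, and 0 to 3 when single livers were left out. The direction held in both comparisons for every member that a fit held. H2-DMb2 and H2-Oa did not enter the age fit on only the groups compared. The median log2 fold change of all genes with age moved from 0.04 to 0.34 with total counts only and 0.15 with upper-quartile factors, and that of class II to 2.497 and 2.27. Genes with r of at least 0.9 to the class II level numbered 209 over all 10 livers and 97 to 370 with single livers left out.

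Old Cd44KO against old Rosa26 called 0 class II genes in every alternative, but the sign was not stable. It turned with limma voom in H2-Aa (0.0756), H2-Ab1 (0.0041), H2-Eb1 (0.0735), Ciita (0.14), H2-DMa (0.0875) and H2-DMb2 (0.39), with no filter in H2-DMb2 (0.0047), and with the guide g4 livers alone in H2-Aa (0.0867), H2-Ab1 (0.0525), H2-Eb1 (0.10), Ciita (0.0640) and H2-DMb2 (0.26). When single livers were left out, the log2 fold change ran for H2-Aa from -0.76 to 0.77, H2-Ab1 from -0.74 to 0.63, H2-Eb1 from -0.71 to 0.71, Cd74 from -0.97 to 0.60, Ciita from -0.43 to 0.82, H2-DMa from -0.64 to 0.81, H2-DMb1 from -0.81 to 0.55, H2-DMb2 from -0.47 to 0.79 and H2-Ob from -0.27 to 0.49. Between guides g4 and g2 it ran for Ciita from -0.0689 to 0.73, H2-DMb1 from -0.11 to 0.96, H2-Oa from -0.47 to 0.60 and H2-Ob from -0.37 to 0.74. The cause of these shifts was not tested. Depth limits H2-Oa and H2-DMb2, which rest on 2 to 9 counts in each young liver.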
